A study of Mus musculus with 6 samples.

Results

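The genes described here encode the proteins that make microRNAs (miRNAs) and carry out their silencing, read in neural stem cells (NSCs) in which 1 miRNA gene, *Mir151*, was deleted. They were chosen by name: *Drosha*, *Dgcr8*, *Xpo5*, *Dicer1*, *Tarbp2*, *Ago1*, *Ago3*, *Tnrc6a*, *Tnrc6b* and *Tnrc6c*, which are 10 of the 32493 genes in the deposited table of RNA-seq counts. NSCs came from the brain of mouse embryos at E14.5, on a C57BL/6J background, and were grown in culture before RNA was taken. Cells of the conditional knockout, called cko, carried floxed miR-151 alleles (miR-151 fl/fl) together with *Emx1*-IRES-Cre, which drives recombination in the dorsal telencephalon. Cells of the control, called ctrl here and wt in the labels, carried the same floxed alleles without Cre. Cells that never expressed *Emx1* keep their floxed alleles, and the number of embryos behind each library is not given in the sources used here, so the p-values below measure the spread between these libraries, which may be technical.

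An miRNA begins as a hairpin within a longer primary transcript. In the nucleus, DROSHA and its RNA-binding partner DGCR8 form the Microprocessor, which cuts the hairpin out. Exportin-5, encoded by *Xpo5*, carries it to the cytoplasm, where DICER1 with its partner TRBP (*Tarbp2*) trims it to a short duplex. A strand of it is then loaded into an Argonaute protein, and the Argonaute recruits a GW182 scaffold (*Tnrc6a*, *Tnrc6b* or *Tnrc6c*), which brings the deadenylation and decapping enzymes that silence and degrade target mRNAs. In the embryonic cortex, loss of DICER1 is known to deplete progenitors and neurons.

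Of the 6 columns of counts, 5 were libraries of their own. In 32493 of 32493 genes, the value given for ctrl 2 was the average of ctrl 1 and ctrl 3 taken up to the next whole number, and that column was left out, so ctrl had n = 2 and cko n = 3. Total counts ran from 17883796 to 23335736 per library, at which 3 counts correspond to 0.129 to 0.168 CPM, the unit used below for counts scaled to library size. The least abundant member count in any library was 661, so counting error was at most 3.89% of a member's count. *Mir151* was not among the rows of the table, so its loss could not be checked here. Markers of other cell states moved with genotype in the same libraries, by the edgeR test described below. Of 6 proliferation genes, 6 were called higher in cko (summed CPM 721 to 802 in ctrl and 1520 to 2009 in cko). Of 8 oligodendrocyte genes, 6 were called lower and 7 had a negative log2 fold change (1392 to 1452 against 582 to 685). Of 7 astrocyte genes, 4 were called lower and 7 had a negative log2 fold change (2001 to 3037 against 833 to 1533). Every cko library lay below both ctrl libraries for 6 of these oligodendrocyte genes and 4 of these astrocyte genes (24.3% of all genes tested). Of 10 NSC markers, 3 were called higher and 1 lower (7146 to 8151 against 8349 to 9067). Most of this sum came from *Vim*, *Fabp7* and *Slc1a3*, of which *Slc1a3* alone was called, as lower. Of 6 neuronal markers tested 1 was called higher (*Syt1*, log2 fold change 1.57) and 1 lower (*Dcx*, -1.51). The neuronal sum (1102 to 1227 against 1196 to 1225), over 7 markers with the untested *Stmn2*, was mostly *Map2* (959 to 1124 CPM). The 6 microglial markers summed to at most 0.80 CPM in any library, with *Cx3cr1* and *Tmem119* at 0. The 4 endothelial markers counted summed to 4.19 to 4.86 CPM in ctrl and 4.97 to 6.71 CPM in cko. Most of this came from *Kdr* (3.71 to 6.43 CPM), while *Cdh5* was at 0. *Xist* was lower in cko (log2 fold change -1.69) and the 4 Y-linked genes counted were higher (0.92 to 1.40). None of the members lies on X or Y (0 of 10). The part of proliferation, cell type and sex in the results below was not tested.

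All 10 members were expressed and tested, and 1 of them passed the test: *Ago3*, which was lower in cko NSCs by 29.5%. In edgeR's quasi-likelihood test over 16710 genes, with Benjamini-Hochberg adjustment and a threshold of 0.05, 0 of 10 members were called higher (7.86% of all genes tested were) and 1 of 10 was called lower (8.57% of all genes tested were). At an unadjusted p under 0.05, 4 of 10 members passed: *Ago3*, *Ago1*, *Tnrc6b* and *Xpo5*. Of all 16710 genes tested, 5445 passed the same threshold. The median log2 fold change of the members was 0.06, against -0.003 over all genes tested, and the median of its absolute size was 0.16, against 0.26 over all genes. The cko libraries lay wholly above the ctrl libraries for 4 of 10 members (25.4% of all genes tested) and wholly below for 3 of 10 (24.3%). No member passed the threshold of the study's own gene lists, a log2 fold change beyond 0.9 with an unadjusted p under 0.01, which 2.39% of all genes passed as higher and 4.17% as lower. In cultures sequenced in bulk, fewer cells of a type and less RNA per cell cannot be told apart.

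**Figure D1:**
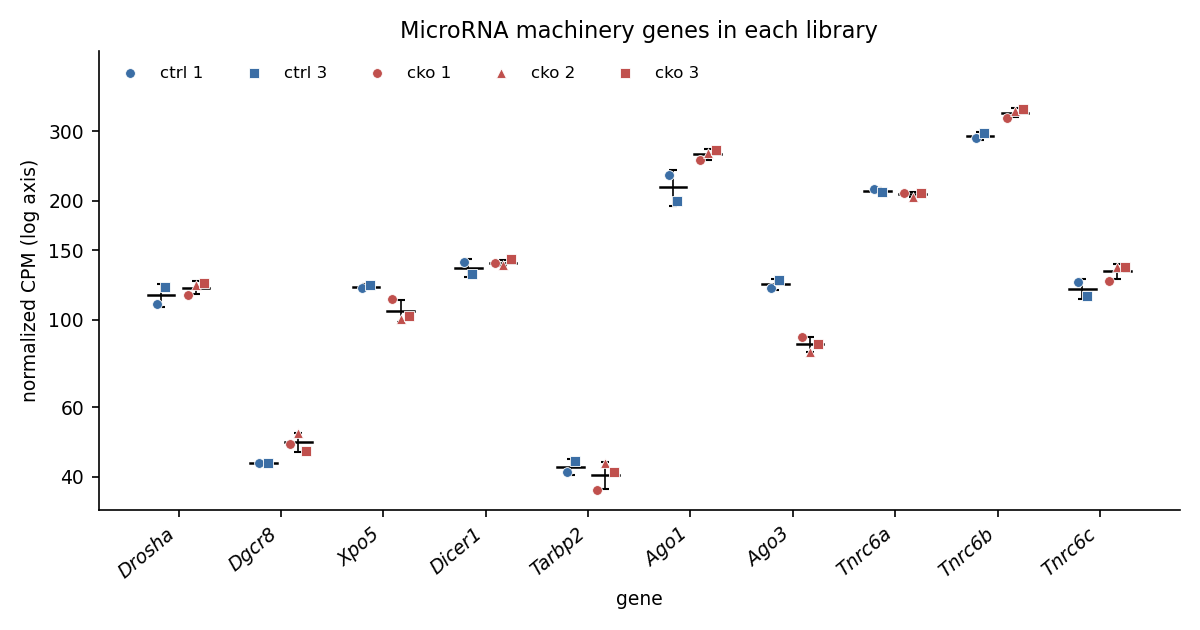
Normalized CPM (log axis) of the 10 members in each library, with ctrl in blue and cko in red, and the group mean with its SD as black bars (n = 2 ctrl, n = 3 cko). The 3 cko points of *Ago3* sit between 82.9 and 90.3, below both ctrl points at 120.1 and 125.8, whereas for *Drosha*, *Dicer1* and *Tarbp2* the groups overlap.

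*Drosha* (ENSMUSG00000022191), the nuclease of the Microprocessor, lies on the plus strand of chromosome 15 at 12824815 to 12935291 in GRCm38. It was read at 109.7 and 120.7 normalized CPM in ctrl 1 and ctrl 3 and at 115.3, 122.4 and 124.0 in cko 1 to 3. The groups overlapped, and the log2 fold change of 0.07 (95% interval -0.12 to 0.25) did not pass the test (edgeR, adjusted p = 0.607).

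*Dgcr8* (ENSMUSG00000022718), the subunit that recognises the hairpin, lies on the minus strand of chromosome 16 at 18253948 to 18289246. Its level was 43.2 CPM in each ctrl library and 48.5, 51.7 and 46.6 CPM in the cko libraries. The groups did not overlap, with every cko library above both ctrl libraries, but the log2 fold change of 0.18 (SE 0.083, 95% interval -0.02 to 0.37) missed the threshold (edgeR, adjusted p = 0.183). The *Dgcr8* transcript is itself cut by the Microprocessor, at hairpins that its own mRNA holds, which is the known feedback between the enzyme and its partner. GENCODE M21 places a pair of miRNA genes inside *Dgcr8* on its strand, *Mir1306* and the gene of miR-3618 (*Gm24572*). The *Mir1306* hairpin is shown because it sits within the coding sequence of *Dgcr8*, so that a cut there removes a part of the message that the count table reads (RefSeq, GRCm38, chr16:18284239-18284317, minus strand, the mature arms in capitals).
Mir1306 hairpin: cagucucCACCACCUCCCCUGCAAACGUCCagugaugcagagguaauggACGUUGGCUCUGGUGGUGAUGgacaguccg
The arms it yields are given with bases 2 to 8, the seed that pairs with targets, in capitals.
miR-1306-5p: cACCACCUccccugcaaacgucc
miR-1306-3p: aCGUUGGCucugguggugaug
The second hairpin lies in a UTR of *Dgcr8* at 18284550 to 18284637. These data hold gene totals, so cut and uncut *Dgcr8* RNA were not separated. Of the distinct 50-base stretches of *Dgcr8* transcripts, 14.98% also occur in transcripts of other genes, mainly *Trmt2a* on the opposite strand, whose exons cover 825 bp (10.7%) of those of *Dgcr8*. *Trmt2a*, a tRNA methyltransferase gene, stood 0.15 higher on the log2 scale in cko (edgeR adjusted p = 0.205), and whether the counting used strand is not given in the sources used here, so the reads of this pair cannot be told apart.

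*Xpo5* (ENSMUSG00000067150), on the plus strand of chromosome 17 at 46202782 to 46243598, stood at 120.1 and 122.3 CPM in ctrl and at 113.0, 100.6 and 102.1 CPM in cko. Each cko library was below both ctrl libraries, with cko 1 the nearest to them. The log2 fold change was -0.20 (SE 0.079, 95% interval -0.39 to -0.02), and edgeR gave an unadjusted p of 0.0353 and 0.123 after adjustment, so the gene was not called. The ratio of *Xpo5* to *Drosha* counts was 1.09 and 1.01 in ctrl and 0.980, 0.822 and 0.823 in cko, without overlap. Such a ratio does not depend on library size, but with 2 against 3 libraries a two-sided exact permutation test cannot go below 0.2, so none of the 6 ratios computed between members of the pathway could pass a threshold of 0.05. An intron of *Xpo5* holds the hairpin of *Mir693* (RefSeq, GRCm38, chr17:46231531-46231619, plus strand), an miRNA precursor inside the gene of its exporter, shown with its mature arms in capitals.
Mir693 hairpin: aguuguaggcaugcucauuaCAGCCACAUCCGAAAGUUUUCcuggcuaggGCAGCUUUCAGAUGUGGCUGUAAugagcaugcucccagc

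*Dicer1* (ENSMUSG00000041415; chromosome 12, minus strand, 104687742 to 104751952) encodes the cytoplasmic nuclease that makes the duplex. It was read at 140.3 and 130.1 CPM in ctrl and at 139.0, 137.3 and 142.1 CPM in cko. The groups overlapped, and the ctrl libraries differed from each other by more than the cko libraries did. Its log2 fold change was 0.04 (95% interval -0.12 to 0.21, edgeR adjusted p = 0.711). *Tarbp2* (ENSMUSG00000023051; chromosome 15, plus strand, 102518192 to 102523676), which encodes the partner that steadies DICER1 and helps in loading, held the lowest count of any member in a library (661, in cko 1). It was read at 41.1 and 43.8 CPM in ctrl and at 37.0, 43.3 and 41.1 CPM in cko. The groups overlapped, and its log2 fold change was -0.07 (95% interval -0.29 to 0.16, edgeR adjusted p = 0.674). Of its 50-base stretches, 14.3% recur in the pseudogenes *Gm18584* and *Gm18561*, and *Gm18584* itself had at most 17 counts in a library.

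*Ago3* (ENSMUSG00000028842) was the member that passed. It encodes an Argonaute that binds miRNAs, as its relatives do. It was read at 120.1 CPM in ctrl 1 and 125.8 CPM in ctrl 3, and at 90.3, 82.9 and 86.9 CPM in cko 1, cko 2 and cko 3. All cko libraries lay below both ctrl libraries, and the gap between the groups (29.8 CPM from ctrl 1 to cko 1) was wider than the range within either (5.74 CPM in ctrl and 7.44 CPM in cko). The group means were 123 ± 4.06 CPM (SD, n = 2) in ctrl and 86.7 ± 3.73 CPM (SD, n = 3) in cko, which is -0.50 on the log2 scale (SE 0.074, 95% interval -0.68 to -0.33; edgeR, adjusted p = 0.00611). By p it ranked 550 of 16710 genes, and by the size of its fold change 4448, so it was a modest change with a small spread. The call held in 12 of 12 other settings, with log2 fold changes from -0.55 to -0.47. These include the fits on all 6 columns, which count the average of ctrl 1 and ctrl 3 as a library. They also include the fits without ctrl 1 or ctrl 3, which leave 1 ctrl library. On the same 5 libraries, adjusted p-values of edgeR or DESeq2 ran from 8.42e-06 without a low-count filter to 0.0226 with replicate number as a block. Without a cko library, the highest in edgeR was 0.0486, without cko 2.

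*Ago1* (ENSMUSG00000041530), the Argonaute with the highest level once divided by exon length (below), pointed the other way. Its level was 232.2 CPM in ctrl 1 and 200.2 CPM in ctrl 3, and 253.5, 264.1 and 269.6 CPM in the cko libraries. The cko libraries were above both ctrl libraries, but the ctrl libraries stood 32.0 CPM apart, wider than the gap of 21.3 CPM between the groups. The log2 fold change was 0.28 (SE 0.087, 95% interval 0.07 to 0.48), and edgeR gave an unadjusted p of 0.0140 and 0.0691 after adjustment, so *Ago1* was not called. Without ctrl 1, the log2 fold change was 0.38, and without ctrl 3 it was 0.18. Each of these fits leaves 1 ctrl library, so the spread within ctrl does not enter them. DESeq2 on the same 5 libraries as the main test gave an adjusted p of 0.0482. Over 12 other settings *Ago1* was called in 5. Among these were the fit without ctrl 1 and the fits that count the average of ctrl 1 and ctrl 3 as a library. On the same 5 libraries, adjusted p-values of edgeR or DESeq2 ran from 0.0318 without a low-count filter to 0.190 with replicate number as a block. Without a cko library, the highest in edgeR was 0.236, without cko 3.

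The Argonautes outside the chosen members did not pass the test. *Ago2*, whose protein can slice targets, was read at 214.6 and 232.4 CPM in ctrl and at 206.7, 235.3 and 232.5 CPM in cko (log2 fold change 0.01, 95% interval -0.19 to 0.21, edgeR adjusted p = 0.958). *Ago4* was read at 39.8 and 32.7 CPM in ctrl and at 34.6, 34.9 and 36.8 CPM in cko (log2 fold change -0.03, 95% interval -0.29 to 0.22, adjusted p = 0.859). In both genes the groups overlapped. In GRCm38, *Ago2* lies 69880 bp from *Mir151*, on chromosome 15.

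**Figure D2:**
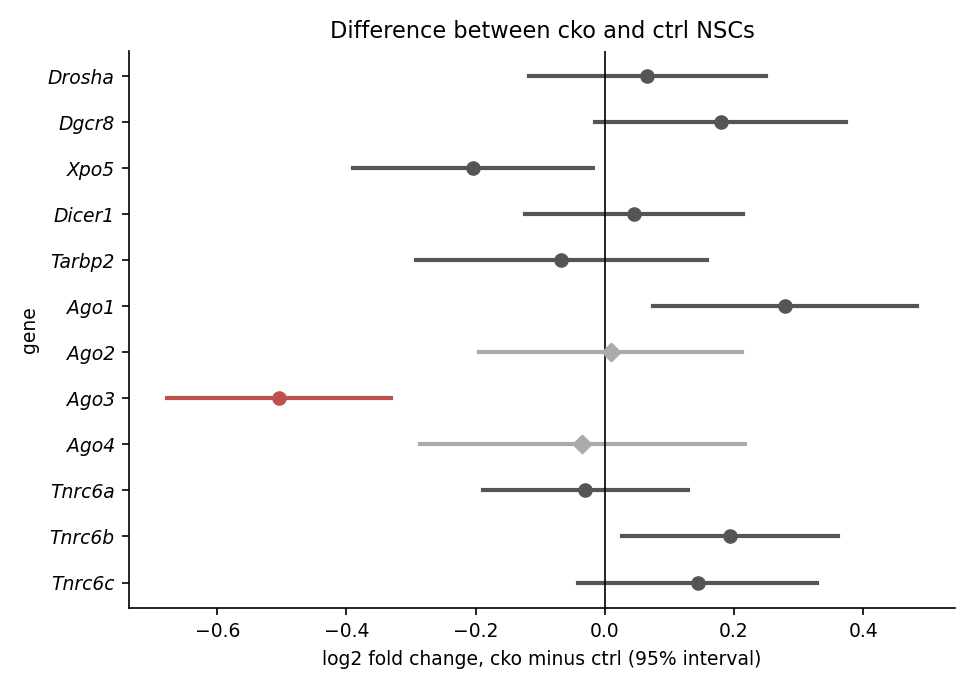
Log2 fold change, cko minus ctrl, of each member (circles) and of *Ago2* and *Ago4* (diamonds), with 95% intervals as bars and genes called by edgeR at an adjusted p under 0.05 in red. *Ago3* at -0.50 is the member called, the intervals of *Xpo5*, *Ago1* and *Tnrc6b* leave out 0 without passing adjustment, and the other intervals include 0.

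*Ago3*, *Ago1* and *Ago4* lie next to each other on the minus strand of chromosome 4, *Ago3* at 126331704 to 126429556, *Ago1* at 126435012 to 126468583 and *Ago4* at 126489541 to 126533472. The gap from *Ago3* to *Ago1* is 5455 bp and that from *Ago1* to *Ago4* is 20957 bp. Their log2 fold changes, given above, were -0.50, 0.28 and -0.03, and the first of these was the one called. The ratio of *Ago3* to *Ago1* counts was 0.517 in ctrl 1 and 0.628 in ctrl 3, and 0.356, 0.314 and 0.322 in cko 1 to 3. Against *Ago2*, *Ago3* had a count ratio of 0.560 and 0.541 in ctrl and of 0.437, 0.352 and 0.374 in cko. Both ratios were lower in each cko library than in either ctrl library. Shared sequence was slight: 0.73% of the 50-base stretches of *Ago3* occur in *Ago1*, and 1.53% of those of *Ago1* occur in *Ago3* or *Ago2*.

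Divided by the length of their exons, the 4 Argonaute genes can be set against each other as CPM per kilobase. *Ago1* took the largest share of the summed Argonaute level in every library, 48.2% ± 2.98 (SD, n = 2) in ctrl and 55.1% ± 0.275 (SD, n = 3) in cko. *Ago2* took 28.9% ± 2.87 in ctrl and 27.3% ± 1.08 in cko. The share of *Ago3* was 12.7% and 14.2% in ctrl and 9.67%, 8.43% and 8.69% in cko, and that of *Ago4* was 9.43% ± 0.918 and 8.69% ± 0.195. *Ago3* thus stood above *Ago4* in both ctrl libraries, while in cko the shares of the pair ran from 8.43% to 9.67%. The sum over the family was 56.9 and 53.5 CPM per kilobase in ctrl and 56.4, 59.3 and 60.3 in cko, with cko 1 between the ctrl libraries. Shares of a total depend on each other, so a lower share of *Ago3* goes with a higher share of the rest.

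**Figure D3:**
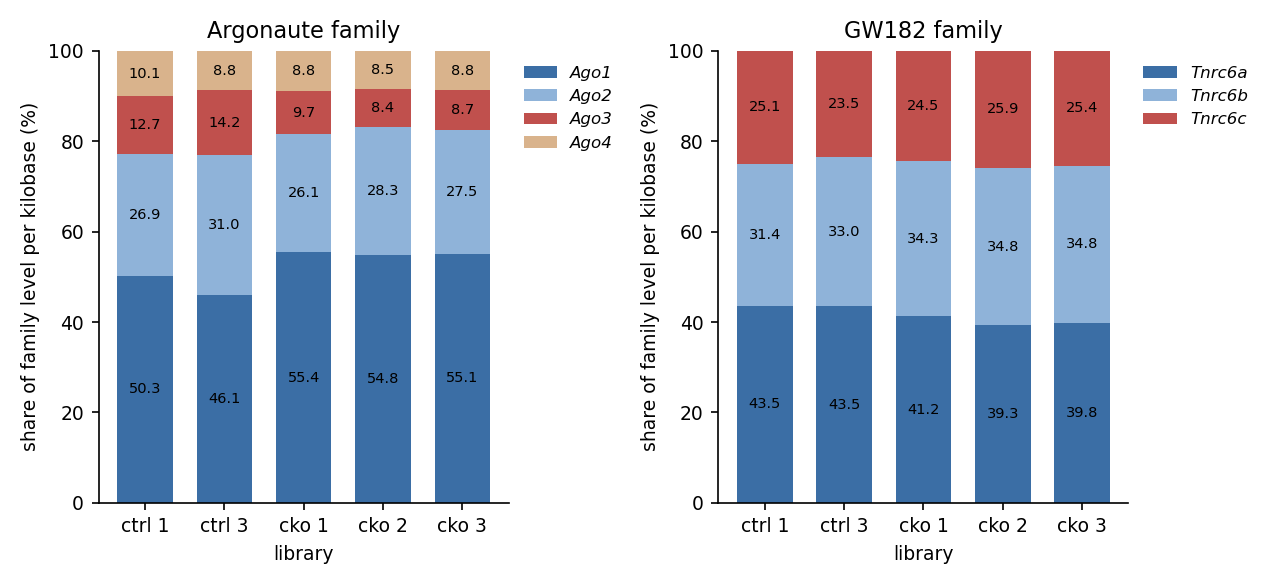
Share of each gene in the summed level per kilobase of the Argonaute family (left) and of the GW182 family (right), in percent, in each of the 5 libraries. The *Ago3* band is 12.7% and 14.2% of the ctrl bars and 8.43% to 9.67% of the cko bars, and the *Tnrc6a* band is 43.5% of both ctrl bars and 39.3% to 41.2% of the cko bars.

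The GW182 genes, which encode the scaffolds that bind Argonautes and the CCR4-NOT complex, gave 0 calls of 3, beside 7.86% of all genes called higher and 8.57% lower. Of the 3, 1 had an unadjusted p under 0.05, as did 5445 of all 16710 genes tested. *Tnrc6a* (ENSMUSG00000052707; chromosome 7, plus strand, 123123885 to 123195296) was read at 214.2 and 210.2 CPM in ctrl and at 209.2, 204.6 and 209.8 CPM in cko. The groups did not overlap but nearly met, with a log2 fold change of -0.03 (95% interval -0.19 to 0.13, edgeR adjusted p = 0.799). *Tnrc6b* (ENSMUSG00000047888; chromosome 15, plus strand, 80711313 to 80941085) was read at 287.9 and 297.3 CPM in ctrl and at 324.5, 337.4 and 341.9 CPM in cko. Every cko library was above both ctrl libraries, with a log2 fold change of 0.19 (SE 0.071, 95% interval 0.03 to 0.36), and edgeR gave an unadjusted p of 0.0286 and 0.108 after adjustment.

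*Tnrc6c* (ENSMUSG00000025571; chromosome 11, plus strand, 117654289 to 117763439) was read at 124.9 and 114.9 CPM in ctrl and at 125.4, 136.3 and 135.5 CPM in cko, where cko 1 lay close to ctrl 1. Its log2 fold change was 0.14 (95% interval -0.04 to 0.33, edgeR adjusted p = 0.252). Within the family, the share of *Tnrc6a* in the level per kilobase was 43.5% ± 0.0238 (SD, n = 2) in ctrl and 40.1% ± 0.996 (SD, n = 3) in cko. The share of *Tnrc6b* was 32.2% ± 1.15 and 34.6% ± 0.271, and that of *Tnrc6c* 24.3% ± 1.12 and 25.3% ± 0.736. The ratio of *Tnrc6a* to *Tnrc6b* counts was 0.744 and 0.707 in ctrl and 0.645, 0.606 and 0.614 in cko, again without overlap. In the remaining ratios computed the groups overlapped: *Drosha* to *Dgcr8* was 2.54 and 2.79 in ctrl and 2.38, 2.37 and 2.66 in cko, and *Tarbp2* to *Dicer1* was 0.293 and 0.337 in ctrl and 0.266, 0.315 and 0.289 in cko.

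Across the pathway, the level per kilobase set the members in an order that put the first nuclease and an Argonaute at the top. *Ago1* led with 26.6 ± 2.79 CPM per kilobase in ctrl and 32.3 ± 1.01 in cko, above *Drosha* at 19.4 ± 1.31 and 20.3 ± 0.779. *Tnrc6a* (16.7 ± 0.224 and 16.4 ± 0.226) and *Xpo5* (17.7 ± 0.234 and 15.3 ± 0.989) came next and changed places between libraries, *Xpo5* being above in 3 of 5, although by the longest annotated transcript *Tnrc6a* was above in all 5. *Tnrc6b* followed at 12.4 ± 0.281 and 14.1 ± 0.382. *Tnrc6c* (9.33 ± 0.551 and 10.3 ± 0.471), *Tarbp2* (9.33 ± 0.427 and 8.89 ± 0.701) and *Dicer1* (8.07 ± 0.427 and 8.33 ± 0.145) were neighbours whose ranges overlapped. *Ago3* and *Dgcr8* stood last, and their ranges over the 5 libraries overlapped. *Ago3* had 7.42 ± 0.245 CPM per kilobase in ctrl and 5.23 ± 0.225 in cko, and *Dgcr8* 5.61 ± 0.00168 and 6.36 ± 0.341. In the 2 ctrl libraries *Ago3* was above *Dgcr8*, and in the 3 cko libraries below it. That crossing too depends on the length used, since by the longest annotated transcript *Ago3* was below *Dgcr8* in all 5 libraries.

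Among the other genes of the pathway, partners of the Microprocessor made up 4 of the 7 that rose. Of 14 cofactor genes, 4 rose and 0 fell, beside 7.86% and 8.57% of all genes tested, with a median log2 fold change of 0.19 against -0.003 over all genes. *Dhx9*, an RNA helicase, was read at 305.6 and 262.8 CPM in ctrl and at 407.6, 421.0 and 423.8 CPM in cko (log2 fold change 0.55, edgeR adjusted p = 0.00781). *Srsf3*, whose protein binds a motif beside many hairpins, was read at 287.9 and 280.5 CPM in ctrl and at 367.9, 401.2 and 397.6 CPM in cko (0.45, adjusted p = 0.00974). *Hnrnpa1*, which binds some primary miRNAs, went from a mean of 743 to 994 CPM (0.42, adjusted p = 0.0171), and *Erh*, a small protein that binds DGCR8, from 92.7 to 119 CPM (0.36, adjusted p = 0.0168). Over 12 other settings the call was lost in 2 for *Dhx9*, 2 for *Srsf3*, 4 for *Hnrnpa1* and 4 for *Erh*. None of the 4 was called without cko 2 or without cko 3. For *Erh*, 49.96% of the 50-base stretches recur in other genes, for *Hnrnpa1* 28.2% and for *Srsf3* 10.04%, against 0.36% for *Dhx9*, so the totals of those 3 are less certain. These proteins also act in splicing and other steps of RNA metabolism, and 6 of 6 proliferation genes were higher in the same libraries, a relation that was not tested.

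Further along the pathway the calls were few. Of 7 export and dicing cofactors, 0 were called, and 2 had an unadjusted p under 0.05, as did 5445 of all 16710 genes tested. Of 10 genes of the Argonaute and loading chaperone list, which includes *Ago2* and *Ago4*, 0 were called, and 0 had an unadjusted p under 0.05. Of 30 genes of deadenylation, decapping and decay, 3 rose and 1 fell, beside 7.86% and 8.57% of all genes tested, with a median log2 fold change of 0.06. *Cnot6*, a deadenylase, was read at 274.7 and 261.6 CPM in ctrl and at 343.3, 375.4 and 363.6 CPM in cko (log2 fold change 0.43, edgeR adjusted p = 0.0120). *Cnot1*, the scaffold of the CCR4-NOT complex that GW182 proteins recruit, went from a mean of 236 to 309 CPM (0.39, adjusted p = 0.0261), and *Dcp2*, the decapping enzyme, from 74.3 to 93.0 CPM (0.32, adjusted p = 0.0432). Over 12 other settings the call was lost in 3 for *Cnot6*, 3 for *Cnot1* and 5 for *Dcp2*. The gene that fell was *Ajuba*, a LIM-domain adaptor linked to Argonaute complexes as well as to cell junctions and Hippo signalling. Its level was 12.2 and 16.8 CPM in ctrl and 5.15, 2.74 and 3.91 CPM in cko (log2 fold change -1.89, adjusted p = 0.00558).

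Of 10 tailing and turnover genes tested, 0 rose and 1 fell, with a median log2 fold change of 0.05, also with *Lin28b* at its bound. *Lin28b*, whose protein blocks the maturation of let-7 miRNAs, had 21 and 17 counts in ctrl 1 and ctrl 3 and 0 in each cko library (edgeR adjusted p = 0.0095), at least 5.40-fold lower by the floor of 3 counts per library. *Lin28a* had at most 1 count in a library and was not tested. Over all 71 companion genes tested, 7 rose, a share near the 7.86% of all genes called higher, and 2 fell, where 8.57% of all genes were called lower, with a median log2 fold change of 0.08. The count of those that rose was 5 without cko 1, 0 without cko 2 and 0 without cko 3, so it rests on which libraries enter, whereas 2 fell whichever cko library was left out.

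**Figure D4:**
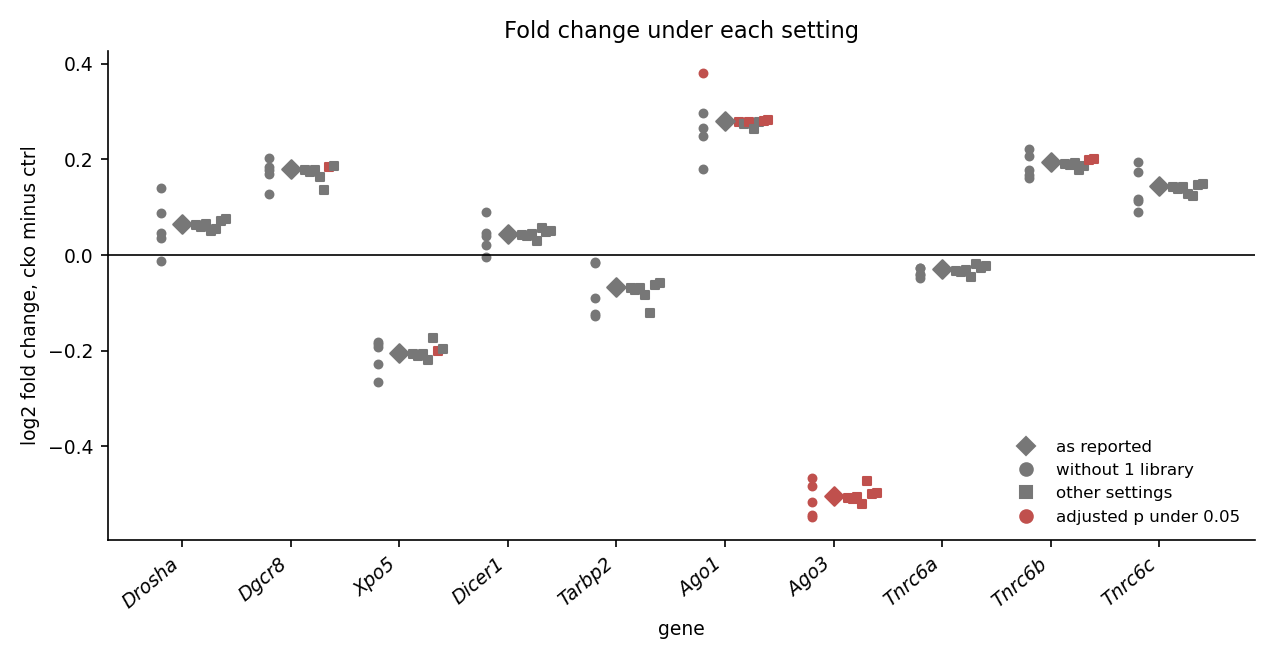
Log2 fold change, cko minus ctrl, of each member as reported (diamonds), without each of the 5 libraries in turn (circles) and under the other 7 settings (squares), with values whose adjusted p is under 0.05 in red. All *Ago3* values lie between -0.55 and -0.47 and are red, while *Ago1* is red in 5 of its 12 other settings and *Drosha* and *Dicer1* cross 0 without 1 ctrl library.

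The table also counts long transcripts named as host genes of miRNAs, which the Microprocessor takes as substrates. Of 9 such hosts, 7 were tested, 4 rose and 0 fell, beside 7.86% and 8.57% of all genes tested. The 7 tested had a median log2 fold change of 0.48, against -0.003 over all genes. *Mir9-3hg*, which holds miR-9, an miRNA of neural progenitors that is known to act on their proliferation and differentiation, was read at 111.3 and 88.6 CPM in ctrl and at 154.5, 207.5 and 201.0 CPM in cko (log2 fold change 0.91, SE 0.15, edgeR adjusted p = 0.00970). *Mir124a-1hg*, a host of miR-124, the miRNA typical of neurons, was read at 10.4 and 12.5 CPM in ctrl and at 20.5, 20.8 and 20.1 CPM in cko (0.84, SE 0.13, adjusted p = 0.00722). *Mir124-2hg* was read at 26.4 and 27.4 CPM in ctrl and at 40.8, 34.6 and 37.0 CPM in cko (0.48, SE 0.10, adjusted p = 0.0220). The other host that rose, named after its values were seen, was *Mir670hg*, at 2.97 and 4.27 CPM in ctrl and 6.15, 8.49 and 6.85 CPM in cko (0.99, SE 0.24, adjusted p = 0.0339). In each of these hosts the cko libraries lay above both ctrl libraries, as they did in 25.4% of all genes tested. Their calls were less firm than that of *Ago3*: without cko 2 the adjusted p was 0.0519 for *Mir9-3hg*, 0.0525 for *Mir124a-1hg* and 0.0644 for *Mir124-2hg*, and without cko 3 it was 0.0535 for *Mir9-3hg* and 0.100 for *Mir124-2hg*, which also missed the threshold without cko 1, at 0.0625. The call of *Mir670hg* was the least firm and was lost in 5 of 12 other settings, with an adjusted p of 0.142 without cko 2, 0.115 without cko 3, 0.0703 without ctrl 1 and 0.0607 without cko 1. The strands of the hairpin in *Mir9-3hg* (RefSeq, GRCm38, chr7:79505264-79505353, plus strand, in an intron of the host) are shown with their seeds in capitals because that host had the most reads of the 7.
miR-9-5p: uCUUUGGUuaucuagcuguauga
miR-9-3p: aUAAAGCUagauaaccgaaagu
Counts of a host transcript do not measure the mature miRNA. Rows annotated as miRNA genes numbered 72 and reached at most 49 counts, so levels of mature miRNAs cannot be read from these libraries.

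**Figure D5:**
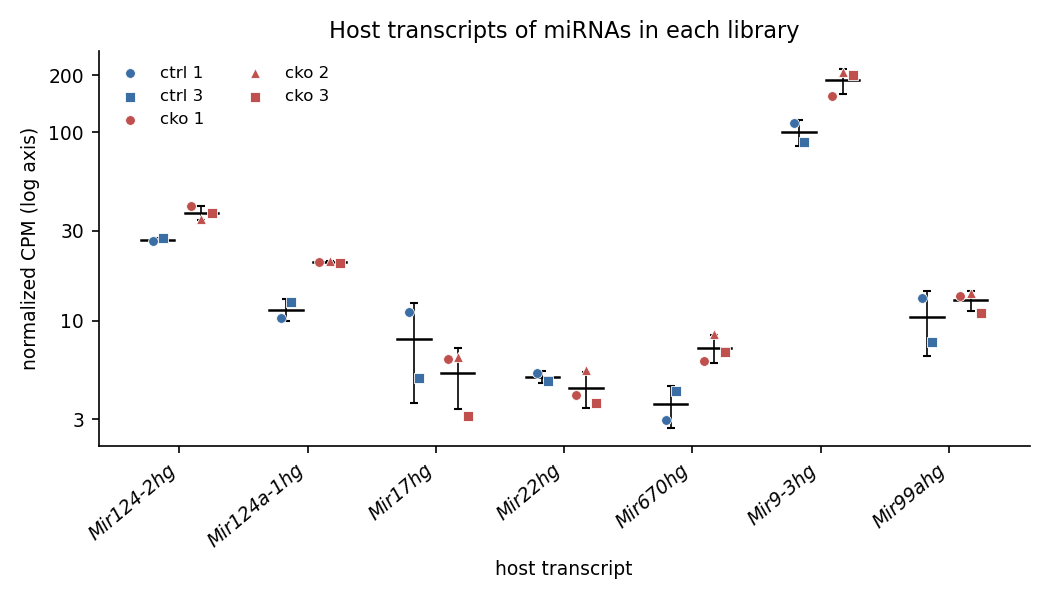
Normalized CPM (log axis) of the 7 tested host transcripts in each library, with ctrl in blue, cko in red and the group mean with its SD as black bars (n = 2 ctrl, n = 3 cko). The cko points of *Mir9-3hg* run from 154.5 to 207.5 and the ctrl points from 88.6 to 111.3, and *Mir124a-1hg* and *Mir124-2hg* also show separate groups, while *Mir17hg*, *Mir22hg* and *Mir99ahg* overlap.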

How the data were processed

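RNA-seq counts of 3 cko and 2 ctrl NSC libraries were used. Per the study's methods, reads were checked with FastQC and NGSQC and aligned with HISAT2 to mm10, while the submitters' processing notes list GRCm39. The authors deposited raw, whole-number counts per Ensembl gene. The counting tool, annotation and strand setting are not given in the sources used here. Of 32493 genes, 31829 were matched to symbols and coordinates of GENCODE M21 (GRCm38), used for names, positions and exon lengths, since the table holds no coordinates.

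Counts were scaled by TMM, filtered with filterByExpr and tested with edgeR 4.0.16 (quasi-likelihood, R 4.3.3) on genotype alone, with Benjamini-Hochberg adjustment over 16710 genes. The scripts were tested on simulated data. DESeq2 1.42.0, other scalings and filters, all 6 columns and leaving out each library were the alternatives. Each member was named. Of the companion genes, *Ago2*, *Ago4*, *Lin28a*, *Lin28b* and up to 4 called genes per list and direction were named, and of the miRNA hosts the 3 with the smallest p. Members and lists were chosen with earlier results of these data known. Floors of counts cover counting error only, and intervals of fold changes come from the edgeR fit and include the spread between libraries. Sequences were taken from RefSeq tables of GRCm38.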

Additional observations from a re-analysis of the deposited data

How the results depend on the processing

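With the log2 fold change of each of the 10 members recomputed under 12 settings (120 values), 111 stayed on the same side of the threshold, 9 passed it anew and 0 lost a call. Members called higher numbered 1 with DESeq2 on 5 libraries and 1 without a low-count filter (*Ago1* in each case), 3 with edgeR and 2 with DESeq2 on all 6 columns, and 0 to 1 when each library was left out. Members called lower numbered 2 with edgeR on all 6 columns and 0 at the study's threshold of 0.9 and 0.01. Companion genes called higher numbered 11 without a filter, 23 with edgeR and 21 with DESeq2 on all 6 columns, 0 at the study's threshold and 0 to 12 when each library was left out. Companion genes called lower numbered 1 with DESeq2, which gave *Lin28b* no adjusted p, and 1 with at least 10 counts in every library, which removes *Lin28b*. The fits on all 6 columns count the mean of 2 libraries as a library. Over all genes, leaving out cko 2 gave 317 higher and 416 lower calls, and leaving out cko 3 gave 336 and 457, against 1314 and 1432. The fits without ctrl 1 or ctrl 3 gave more calls than the fit on 5 libraries, in both directions. They leave 1 ctrl library, so the spread within ctrl does not enter them. With the longest transcript in place of all exons, the members ranked 1 to 5 by level per kilobase kept their ranks, though *Drosha* was above *Tnrc6a* in 3 of 5 libraries rather than in 5, and the genes from rank 6 to rank 10 were *Tarbp2*, *Dicer1*, *Tnrc6c*, *Dgcr8* and *Ago3*.

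The replicate numbers of ctrl and cko were not stated to mark a shared litter or day, and deviations from the group means correlated at 0.14 for replicate 1 and 0.05 for replicate 3 across 16710 genes. With 2 ctrl libraries, the deviations of ctrl 1 and ctrl 3 mirror each other. The 2 correlations are therefore not independent and cannot decide whether the replicates are paired. Under a replicate block, 2 companion genes were called higher, 2 lower, and over all genes 918 were higher and 1065 lower.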
